A study of Mus musculus with 59 samples.

Results

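The Hox cluster genes were taken as every mouse gene whose symbol is Hox followed by a cluster letter from a to d and a number. The rule found 39 genes in 4 clusters, of which 38 had a row among the 39017 gene identifiers of the RNA tables (Hoxd4 had none and was not analysed here in RNA). In the chromatin immunoprecipitation (ChIP) tables, 103 of the 526765 windows of 5 kb on chromosomes 1 to 19 and X lay over the clusters. On mm10 the HoxA cluster ran from chr6:52155367-52260880 (11 genes, 22 windows), HoxB from chr11:96194316-96368254 (10 genes, 36 windows), HoxC from chr15:102921131-103036856 (9 genes, 24 windows) and HoxD from chr2:74668225-74765142 (9 genes, 21 windows).

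Hox genes encode homeodomain transcription factors that tell cells where they lie along the body axis. Genes at the end of a cluster with low numbers act at anterior levels, those with high numbers act at posterior levels, and retinoic acid, Wnt and FGF signals open the clusters from the anterior end during gastrulation. In undifferentiated embryonic stem cells the clusters are textbook targets of Polycomb repression, in which PRC2 methylates histone H3 and PRC1 ubiquitinates histone H2A. The clusters also carry microRNA genes, whose hairpins are cut from the primary transcript by the Microprocessor, the complex of the nuclease DROSHA and its RNA-binding partner DGCR8.

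The study compared mouse embryonic stem cells of a 129xC57Bl6 hybrid line, all grown on gelatin with serum and LIF, a cytokine that holds such cells undifferentiated. A line with the genotype Rosa26:CRE, DGCR8 Flox/Flox and a line given only as Drosha Flox/Flox, with no recombinase in its label, were left untreated or given 0.5 µM 4-hydroxytamoxifen (4OHT), which activates a tamoxifen-dependent Cre, for 24, 48 or 96 h, with 2 libraries in each group except for a single Drosha library after 96 h of 4OHT. The heat experiment used 2 parental cultures (Rosa26:BirA, DGCR8 FLAG/Avi) and 4 lines with the added label METTL3KO (1d1, 3xU, 1d2 and 2c4d), each at 37 °C and after 1 h at 42 °C. METTL3 is the enzyme that writes N6-methyladenosine on new RNA. Total RNA was depleted of ribosomal RNA before sequencing, so new unspliced and unpolyadenylated transcripts could be read as well. The 24 ChIP libraries came from cells that carry the biotin ligase BirA and a FLAG/Avi tag on DGCR8, DROSHA, DICER or METTL3, with streptavidin pulldown after formaldehyde (FA) fixation or with added disuccinimidyl glutarate (DSG). DGCR8 was also precipitated from a Mettl3 knockout line, and DGCR8 and METTL3 (lines H4 and H5) at 37 °C and 42 °C.

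The 35 RNA libraries held 7102867 to 13579892 counted reads each, and the 24 ChIP libraries 13775668 to 86256100. Treatment labels and titles disagreed for 1 control and 1 treated replicate of each floxed group. Titles and source names also disagreed for 4 of the 6 libraries of the METTL3 clones, where precipitate and input are exchanged, and for 6 of the 9 ChIP libraries of the heat experiment. The titles were followed throughout. They equal the column names of the METTL3 clone counts, while the heat ChIP columns have shorter names that were matched to the titles. The METTL3 and heat ChIP results rest on these titles. Drosha RNA fell in the libraries titled 4OHT of the Drosha line (28.3 against 92.3 CPM, the counts per 1000000 counted reads of a library, at 24 h, with log2 changes of -1.68, -2.12 and -2.28 at the 3 times). Counts over the whole Dgcr8 gene do not check the loss of an exon: Dgcr8 RNA was higher in the libraries titled 4OHT of the DGCR8 line, by 1.27, 0.95 and 1.02 on the log2 scale. In the Drosha line Dgcr8 RNA was also higher in the libraries titled 4OHT, by 1.84, 1.86 and 1.38. Mettl3 RNA in the knockout lines was lower than in parental cells by a log2 difference of -1.23 at 37 °C (adjusted p = 0.0439, edgeR) and -1.12 at 42 °C (adjusted p = 0.0632). The labels do not say that replicates were separate cultures, so p-values measure the spread between these libraries, which may be technical. The stem cell markers Pou5f1, Sox2 and Nanog were read at no less than 394.8, 239.6 and 166.6 CPM in any RNA library.

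The hairpins of the HoxA to HoxD clusters are substrates of the Microprocessor. Each floxed line is meant to lose a subunit of it, so the mature products of the hairpins are shown first, grouped by seed. The sequences are from RefSeq on GRCm38.p6, the assembly of mm10, written 5′ to 3′ with the seed (bases 2 to 8) in capitals. miR-10a-5p lies just before Hoxb4 at chr11:96317186-96317208 (+ strand), inside the long gene model of Hoxb3, and miR-10b-5p at chr2:74726074-74726096 (+), inside the gene models of Hoxd3 and Hoxd4.
miR-10a-5p: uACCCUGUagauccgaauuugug
miR-10b-5p: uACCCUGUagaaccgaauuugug
These 2 share 1 seed. The miR-196 family also shares 1 seed: miR-196a-5p is encoded by 2 genes, at chr11:96265187-96265208 (+) beside Hoxb9 and at chr15:102973365-102973386 (+) beside Hoxc10, and miR-196b-5p at chr6:52230129-52230150 (- strand) beside Hoxa10.
miR-196a-5p: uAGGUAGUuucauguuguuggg
miR-196b-5p: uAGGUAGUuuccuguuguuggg
miR-615-3p lies at chr15:103014969-103014990 (+) inside the gene model of Hoxc5 and has a seed of its own.
miR-615-3p: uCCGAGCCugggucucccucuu
The libraries were made from total RNA and not from small RNA, and the tables count reads over the hairpin genes. Mir10a, Mir196a-2, Mir196b and Mir615 had 0 reads in all 35 libraries, Mir10b had 1 read, and Mir196a-1 had 27 reads with at most 6 in a library. Over the 382975015 counted reads, 0 reads allows a level of up to 0.0078334 CPM (3 reads, counting error only).

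Hox genes were read at a low level in every library. The 38 genes together had 4571 reads of 382975015. Over the 35 libraries 2 genes averaged at least 1 CPM, 9 genes reached 1 CPM in any library, 7 were read in all 35, and 11 had under 35 reads in all. No gene was at 0 in all 35 libraries. The median gene averaged 0.127 CPM.

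Hoxc13, a posterior gene known for hair and nail keratins, had 490 reads and averaged 1.29 ± 0.578 CPM (SD, n = 35). Also read in every library were Hoxb9 (0.893 CPM), Hoxd13 (0.791 CPM, a limb digit gene), Hoxb13 (0.784 CPM, a gene of the tail and prostate) and Hoxa7 (0.664 CPM, a gene of the trunk).

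Levels can be compared between genes only per length of exon. On the scale of CPM per kb the order ran through Hoxc13 (0.525), Hoxb13 (0.356), Hoxb9 (0.347), Hoxd13 (0.319), Hoxa7 (0.231), Hoxc4 (0.165), Hoxb7 (0.142), Hoxd8 (0.123) and Hoxa10 (0.121). The SDs over libraries were 0.235 for Hoxc13, 0.219 for Hoxb13, 0.159 for Hoxb9 and 0.164 for Hoxd13, so from Hoxc13 downward each of these genes differed from its neighbour in the order by less than its spread over libraries. The order is a mean over lines that differ: in untreated DGCR8 libraries Hoxb13 (0.306) stood above Hoxd13 (0.209), Hoxb9 (0.178) and Hoxa7 (0.150), and in untreated Drosha libraries (0.205) it stood below Hoxa7 (0.401), Hoxd13 (0.393), Hoxb9 (0.334) and Hoxd8 (0.310). The low end held Hoxb8 with 7 reads and Hoxb5 with 3 reads in all 35 libraries. The order did not follow position in the cluster, since Hoxc13, Hoxb13 and Hoxd13 from the posterior end stood among the higher members and Hoxb8 and Hoxb5 from the middle at the low end. Gene models that reach across a neighbour (Hoxa3 over Hoxa4, Hoxa5 and Hoxa6, Hoxb3 over Hoxb4, Hoxd3 over Hoxd4 and Hoxd11 over Hoxd10) make the counts of these genes uncertain, since strand use in the counting is not given in the sources used here.

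**Figure D1:**
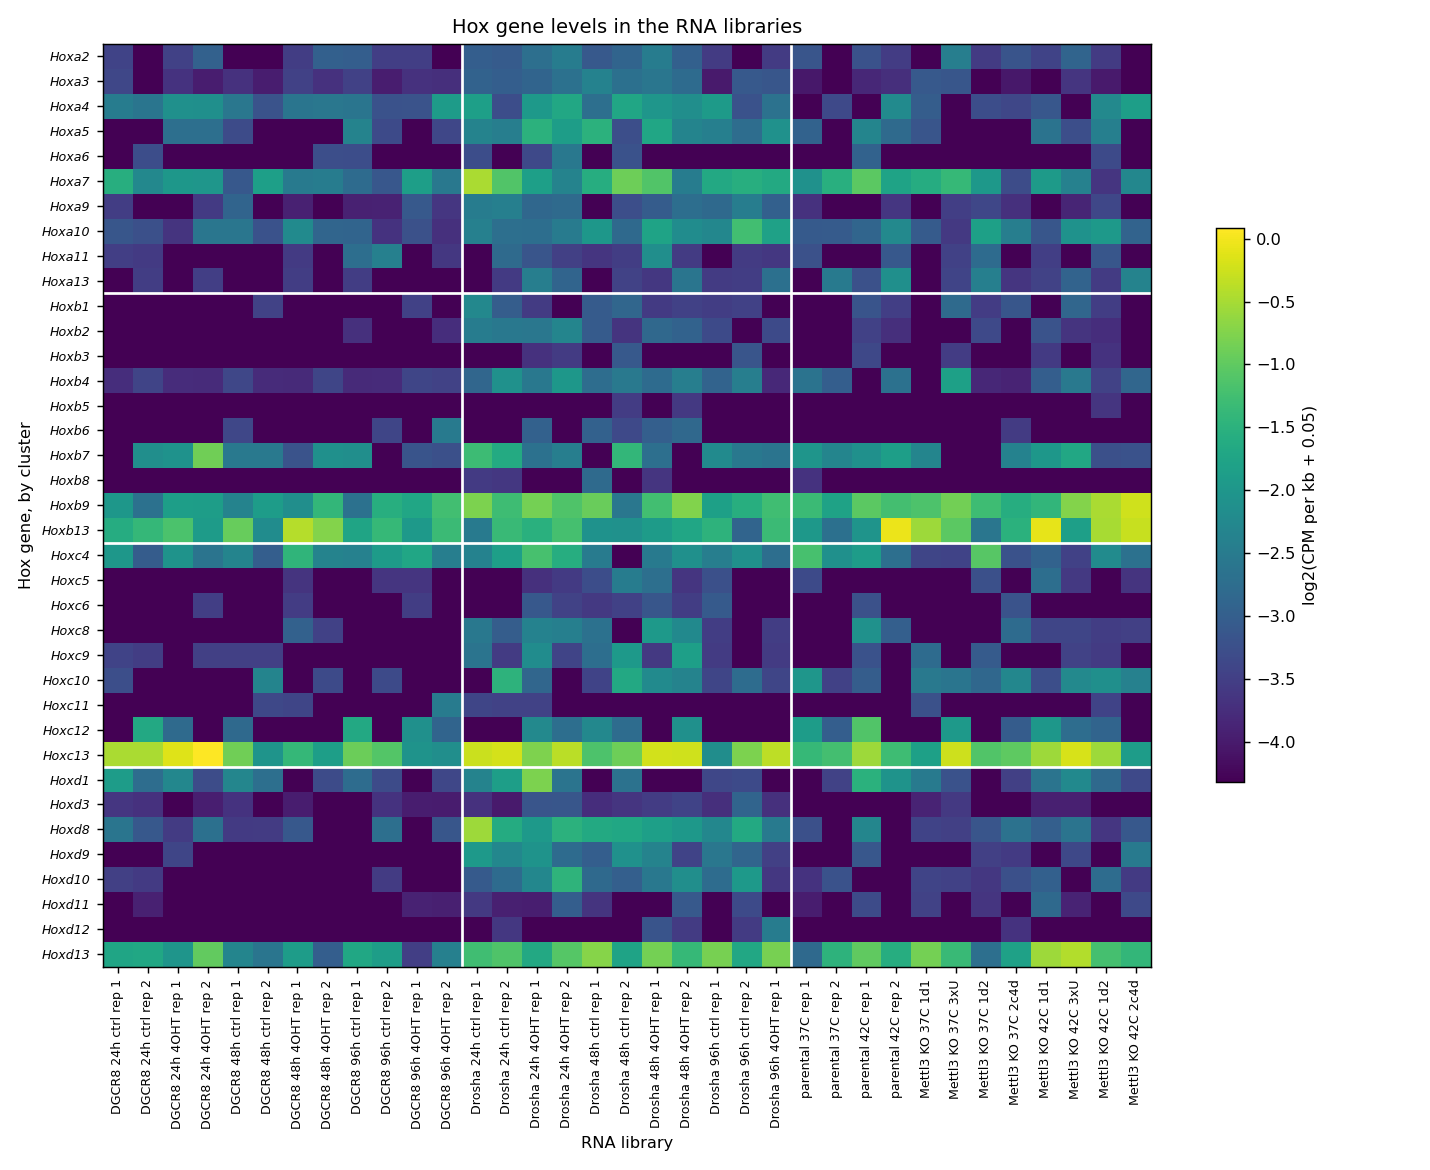
Heat map of log2(CPM per kb + 0.05) for 37 Hox genes (vertical axis, by cluster) in the 35 RNA libraries (horizontal axis). Hoxc13 forms the brightest row of those shown, and the Drosha line libraries show more filled cells in HoxA and HoxD than the DGCR8 line libraries.

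The clearest difference within the family was between the 2 floxed lines before any treatment. The 38 genes summed to 8.22 ± 1.19 CPM (SD, n = 6, range 6.15 to 9.66) in the untreated DGCR8 line and to 15.9 ± 3.42 CPM (n = 6, range 11.8 to 20.4) in the untreated Drosha line. Every untreated Drosha library lay above every untreated DGCR8 library, a ratio of means of 1.94. By cluster the ratio was 2.71 for HoxD (2.96 ± 0.566 against 1.09 ± 0.393 CPM), 2.04 for HoxA (7.78 ± 1.73 against 3.81 ± 0.592), 1.85 for HoxB (2.73 ± 0.674 against 1.48 ± 0.255) and 1.34 for HoxC (2.48 ± 0.774 against 1.85 ± 0.427). Pooled over the 6 libraries of each line, 32 of 38 genes were higher in the Drosha line and 6 were lower. Some directions rest on very few reads, such as 0 in the DGCR8 line against 1 in the Drosha line for Hoxb5. Of 26 Hox genes with at least 10 reads, 21 had a positive log2 difference (edgeR), against 52.4% of all genes so filtered. Part of the 26 passed that filter only through the Drosha libraries, so nothing is read from these counts. In bulk RNA, fewer cells that express a gene and less RNA per cell cannot be told apart, and with 1 cell line of each genotype, genotype and cell line cannot be told apart either.

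In the edgeR quasi-likelihood test with time as a covariate, 5 Hox genes passed the filter on low counts and 3 were called higher in the Drosha line at an adjusted p below 0.05. The background was large, since 53.8% of the 15460 genes tested were called in either direction between these lines, and 3 of 5 is near it. Hoxa7 was higher by 1.29 on the log2 scale (SE 0.336, adjusted p = 0.0038) and Hoxd13 by 0.80 (SE 0.317, adjusted p = 0.0423). Hoxb9 had a log2 difference of 0.78 with an adjusted p of 0.0927, and Hoxc13 of -0.02 with an adjusted p of 0.959. Hoxa7 stayed called with DESeq2 and without any 1 library. Hoxd13 was lost with DESeq2 (adjusted p = 0.0919) and in 9 of the 12 fits that left out 1 library, the highest adjusted p being 0.136 without the Drosha 48 h control replicate 1.

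Hoxa7 ran from 0.186 to 0.826 CPM (median 0.364) in the untreated DGCR8 line and from 0.768 to 1.91 CPM (median 1.01) in the Drosha line, with overlap only between the highest DGCR8 library and the lowest Drosha libraries. Hoxd13 ran from 0.284 to 0.638 CPM (median 0.588) against 0.606 to 1.39 CPM (median 0.961), and here the ranges also touched.

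When every gene with at least 10 reads over the 12 untreated libraries was kept, 26 Hox genes were tested among 20391 genes. Of these, 10 were called higher in the Drosha line and 0 lower (edgeR, with 13 at an unadjusted p below 0.05 in either direction), against 23% of all genes higher and 20% lower. DESeq2 called 2 of the family. Hoxd9, Hoxb1, Hoxb2, Hoxd10 and Hoxb4 had 0 to 8 reads in the DGCR8 libraries and passed this filter only through the Drosha libraries, so the count of 10 is no rate for the family and nothing is read from it.

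Hoxd8 had 3, 2, 1, 1, 0 and 3 reads in the untreated DGCR8 libraries and 19, 9, 9, 7, 5 and 8 in the untreated Drosha libraries, a log2 difference of 2.24 (SE 0.472, adjusted p = 0.000635, edgeR). Hoxb4 had 1, 2, 2, 1, 1 and 1 reads against 4, 9, 5, 5, 4 and 6, a ratio of pooled levels of 3.89. In both genes the 6 Drosha libraries lay above the 6 DGCR8 libraries. Hoxd9 had 0 reads in all 6 untreated DGCR8 libraries and 5, 4, 2, 4, 3 and 2 in the Drosha libraries. Set against 3 reads over the group, the limit that 0 reads allows, the ratio of pooled levels was 6.28. Hoxd10, the neighbour of Hoxd9, had 1, 1, 0, 0, 0 and 1 reads against 2, 3, 3, 2, 3 and 6, a ratio of 5.97. Hoxb4, Hoxd9 and Hoxd10 are among the 10 counted above, and their own p-values are left out because of how they passed the filter. For the same reason their ratios describe these reads only and are no test.

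These 4 were the only genes of the family with at least 10 reads whose untreated groups did not overlap with the Drosha line above, and 0 did so with the Drosha line below. Among all 20391 genes, 14.4% did so above and 6.76% below, so 4 of 26 is near the background share. Hoxb3, Hoxb5, Hoxb8, Hoxc6, Hoxc8, Hoxd9 and Hoxd12 were at 0 in all 6 untreated DGCR8 libraries (63589494 reads, which allow up to 0.0472 CPM), and no gene was at 0 in all 6 untreated Drosha libraries. Hoxb2 had 1 read against 16 and Hoxb1 had 1 against 12, and both passed the filter of 10 reads only through the Drosha libraries. Hoxc4 and Hoxc13 stood at like levels in the DGCR8 and Drosha lines, at 0.364 ± 0.158 against 0.348 ± 0.197 CPM and 1.20 ± 0.438 against 1.31 ± 0.594 CPM. Hoxb13 stood at 0.675 ± 0.222 against 0.452 ± 0.226 CPM. It was lower in the Drosha line by a log2 difference of -0.65 and was not called (adjusted p = 0.188, edgeR, filter of 10 reads).

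**Figure D2:**
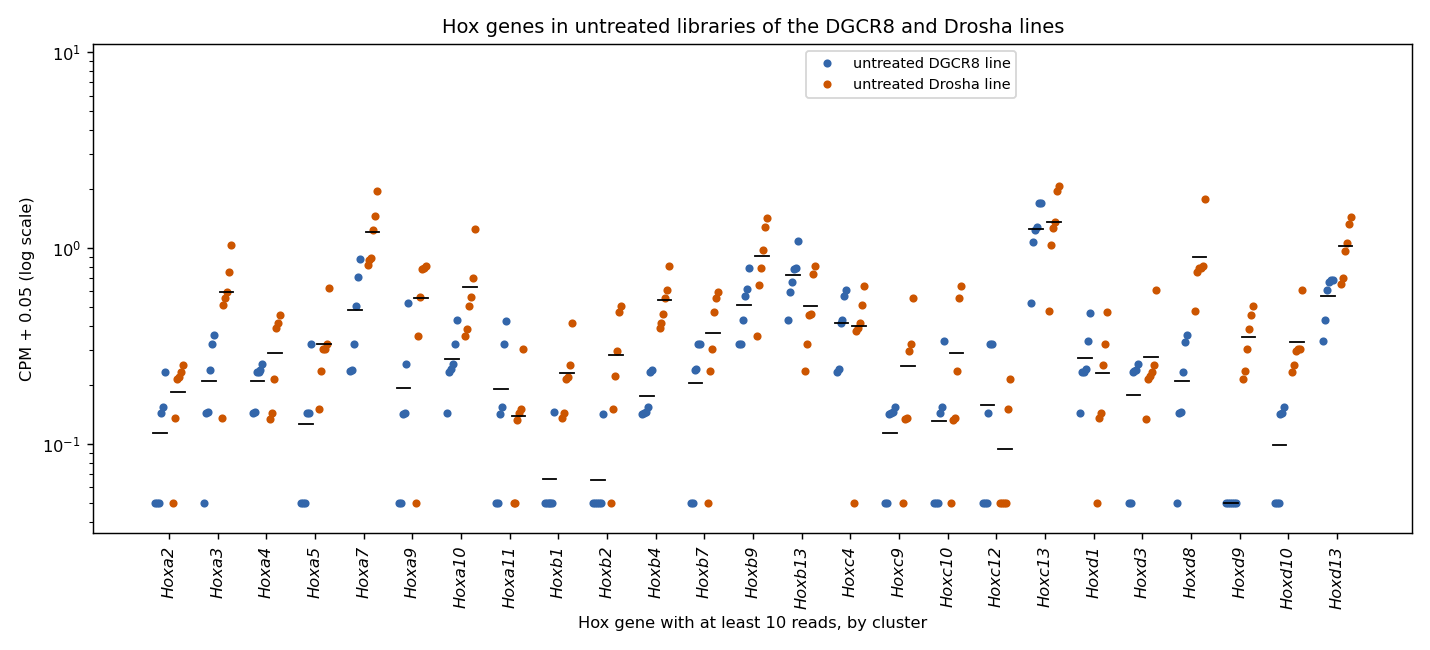
CPM + 0.05 on a log axis for 25 Hox genes with at least 10 reads in the untreated libraries, ordered by cluster and number (left to right), with 1 point a library (6 untreated DGCR8, blue; 6 untreated Drosha, orange) and a bar at each mean. Hoxb4, Hoxd8, Hoxd9 and Hoxd10 show no overlap between the lines, and the last 2 stand at or near 0 in the DGCR8 line.

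The promoters of these 4 genes are shown as the starts of the members whose reads did not overlap between the untreated lines. Each runs 5′ to 3′ on the + strand from 250 bases before to 50 bases after the RefSeq start on GRCm38.p6, with CpG dinucleotides in capitals: Hoxb4 at chr11:96318017-96318316, Hoxd10 at chr2:74691641-74691940, Hoxd9 at chr2:74697513-74697812 and Hoxd8 at chr2:74704365-74704664.
Hoxb4: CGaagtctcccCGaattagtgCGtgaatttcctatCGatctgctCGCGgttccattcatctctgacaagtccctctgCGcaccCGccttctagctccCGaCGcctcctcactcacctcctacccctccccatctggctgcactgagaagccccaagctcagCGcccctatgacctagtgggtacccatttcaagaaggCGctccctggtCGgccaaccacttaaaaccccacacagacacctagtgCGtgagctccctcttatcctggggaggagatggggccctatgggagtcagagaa
Hoxd10: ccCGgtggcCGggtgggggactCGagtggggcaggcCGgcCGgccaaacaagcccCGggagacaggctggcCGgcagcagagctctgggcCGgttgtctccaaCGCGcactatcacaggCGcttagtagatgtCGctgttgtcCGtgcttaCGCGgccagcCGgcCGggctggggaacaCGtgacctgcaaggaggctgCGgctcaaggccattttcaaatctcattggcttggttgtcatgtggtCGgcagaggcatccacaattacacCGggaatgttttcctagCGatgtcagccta
Hoxd9: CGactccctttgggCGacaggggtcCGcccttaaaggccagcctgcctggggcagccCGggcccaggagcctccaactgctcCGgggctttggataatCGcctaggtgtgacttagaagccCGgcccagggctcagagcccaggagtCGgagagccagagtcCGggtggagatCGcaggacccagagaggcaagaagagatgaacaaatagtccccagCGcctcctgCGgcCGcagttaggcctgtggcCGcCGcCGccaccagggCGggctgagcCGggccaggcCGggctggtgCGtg
Hoxd8: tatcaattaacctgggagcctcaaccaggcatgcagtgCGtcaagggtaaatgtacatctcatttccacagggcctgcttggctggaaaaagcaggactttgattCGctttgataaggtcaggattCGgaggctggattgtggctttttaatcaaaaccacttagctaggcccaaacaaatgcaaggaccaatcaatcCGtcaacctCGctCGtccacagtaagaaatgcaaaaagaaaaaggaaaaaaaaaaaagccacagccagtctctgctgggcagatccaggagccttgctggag
Hoxd10 held 22 CpG (62.7% GC), Hoxd9 20 (68.3%), Hoxb4 14 (58%) and Hoxd8 6 (46.7%). The table held 24 promoters of 22 Hox genes among 32851 promoters of 27025 genes. Their median GC content was 57.7%, against 52.7% over all promoters, and their median ratio of observed to expected CpG was 0.626 against 0.384, which describes the CpG-rich starts that Polycomb proteins are known to occupy.

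A search of both strands gave AGGTCA, the core of retinoic acid and other nuclear receptor sites, in 7 of 24 Hox promoters (29.2%, against 16.3% of all promoters of the same length), including those of Hoxb4, Hoxd10 and Hoxd8 but not that of Hoxd9. CCAAT was found in 15 (62.5%, against 37.4%), including Hoxd10 and Hoxd8. TTTATG, the core bound by CDX factors, was found in 5 (20.8%, against 11.9%), TATAAA in 4 (16.7%, against 13.6%) and GGGCGG in 10 (41.7%, against 35.7%), including Hoxd9. None of these motifs contains another, and a match is a description of the sequence only.

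Genes known to act above the clusters also differed between the untreated lines, where 53.8% of all genes tested were called, and the counts of the lists are given beside that share as a description only. Of the Cdx, Evx and ParaHox list, which holds homeobox relatives of the Hox genes, 2 of 8 passed the filter and both were called higher in the Drosha line: Cdx2 by 3.02 (SE 0.446) and Cdx1 by 1.19 (SE 0.239) on the log2 scale. Of 22 genes of retinoic acid and posterior signalling, 19 were tested, 12 were higher and 3 lower, with a median log2 difference of 0.88 against -0.01 over all genes. T, the mesoderm factor Brachyury, stood at 11.45 CPM against 0.127 CPM (log2 difference 6.27), the Wnt ligands Wnt8a and Wnt3 were higher by 5.66 and 4.13, and the retinoic acid target Stra8 was lower by a log2 difference of -2.45. Of 36 other developmental regulators that Polycomb silences in stem cells, 15 were tested, 10 were higher and 1 was lower (median 0.75). Olig2 was higher by 6.89, Olig1 by 3.84 and Irx2 by 1.62, and Tbx3 was lower (-1.48). Cdx2, T, Wnt8a, Olig2 and Olig1 averaged 0.205 CPM or less in the untreated DGCR8 line and passed the filter only through the Drosha libraries. Genes of this kind enter on the higher side, so the counts and medians of these lists are tilted upward and nothing is read from them.

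The Polycomb subunits themselves had no common direction between the lines, where 53.8% of all genes tested were called. The counts of these lists are a description beside that share. Of 12 PRC2 genes, all tested, 4 were higher and 5 lower: the accessory subunit Phf19 by 1.06, the core subunit Eed by -0.73, Mtf2 by -0.95 and Rbbp4 by -0.30. Of 20 PRC1 genes 19 were tested, 6 were higher and 3 lower, with the catalytic subunit Rnf2 at -0.52 and Phc2 at 0.74. Of 13 MLL and trithorax genes, which oppose Polycomb, 3 were higher and 5 lower. Of 9 TALE genes, which encode the DNA-binding partners of Hox proteins, 5 were higher and 2 lower, among them Meis1 by 1.82, Pbx2 by 0.48 and Pbx3 by -0.72.

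Markers of other cell types also differed in this contrast, where 53.8% of all genes tested were called, and their counts are a description only. T, Col3a1 and Postn averaged 0.127 CPM or less in the untreated DGCR8 line and passed the filter only through the Drosha libraries. All 4 tested of 6 mesoderm markers were higher in the Drosha line, with summed levels of 18.9 to 35.6 CPM against 2.93 to 6.30 CPM in the untreated DGCR8 libraries. Of 10 fibroblast feeder markers, 6 of 7 tested were higher and 1 lower, at 30.6 to 64.2 CPM against 11.7 to 15.1 CPM. Col1a1 stood at 22.9 against 0.949 CPM, while the fibroblast gene Lum had 0 reads in the untreated Drosha libraries and Dcn 10. Neural markers summed to 204 to 243 against 101 to 128 CPM (4 of 6 higher, 1 lower) and endoderm markers to 112 to 145 against 65.6 to 90.9 CPM (5 of 6 higher). Of 8 stem cell markers 7 were lower, with Zfp42 at 75.1 against 524.5 CPM. The sum over 15173 other genes of low expression, those averaging under 1 CPM in the floxed libraries, ran from 2180 to 2842 CPM in the Drosha line and from 1856 to 2309 CPM in the DGCR8 line. The part of these cell types in the Hox difference was not tested.

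No Hox gene passed the test after 4OHT in the DGCR8 line. The treatment is meant to delete Dgcr8. After 4OHT the summed Hox level was 9.94 ± 0.786 CPM at 24 h (control 9.22 ± 0.631), 8.82 ± 2.18 at 48 h (control 7.03 ± 1.24) and 7.39 ± 1.73 at 96 h (control 8.42 ± 0.454), each from 2 libraries (± SD), and the ranges of treated and control libraries overlapped at each time. With TMM scaling they did not overlap at 24 h (9.345 and 10.52 against 8.866 and 9.336) or at 96 h (8.307 and 8.444 against 8.644 and 8.796). The 96 h treated replicate 1 was unlike its replicate: their counts differed by a chi-square of 125.8 per gene, against 4.156 to 14.73 in the other pairs of the floxed lines, and mt-Rnr2 took 27.1% of its reads against 9.55%. Its Hox sum was 6.17 CPM against 8.62 CPM in replicate 2, and 0 Hox genes were called without either. In edgeR's quasi-likelihood test, 3 Hox genes passed the filter, Hoxb13 and Hoxc13 among them, and 0 were called at 24, 48 or 96 h. The background share of called genes was 0.107%, 1.48% and 13.5% of 14973 genes. DESeq2 called 0 of the family at each time. With the filter of 10 reads, 20 Hox genes were tested and 0 called, with 0, 0 and 1 at an unadjusted p below 0.05. The 1 is Hoxc13 at 96 h.

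In the DGCR8 line Hoxb13 stood at 1.04 and 0.379 CPM in the 48 h controls and above both in the treated libraries, at a log2 change of 0.99 (SE 0.484, adjusted p = 0.377). Hoxc13 at 96 h was below both controls, at 0.467 and 0.431 CPM against 1.18 and 1.02, with an unadjusted p of 0.0472 and an adjusted p of 0.167.

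In the Drosha line 4OHT gave 1 called Hox gene. The family summed to 19.1 ± 0.926 CPM after 24 h of 4OHT (control 20.1 ± 0.468), 17.3 ± 1.07 at 48 h (control 15.1 ± 0.368) and 15.0 CPM in the single library at 96 h (control 12.7 ± 1.31). The ranges overlapped at 24 h but not at 48 h (16.57 to 18.08 against 14.82 to 15.34 CPM) or 96 h (15.03 against 11.78 to 13.63 CPM). With TMM scaling the treated libraries at 24 h lay just below the controls, at 17.85 and 17.71 against 19.1 and 17.86. At 48 h and 96 h they lay above, at 17.19 and 15.93 against 13.91 and 15.01, and at 17.38 against 11.33 and 12.78. At 96 h 3 of 6 endoderm markers rose, 2 of 6 neural markers rose and 1 fell, and of 8 stem cell markers Nanog rose and Sox2, Tdgf1 and Pou5f1 fell. The stem cell markers summed to 1968 CPM there, against 2741 to 3237 CPM in the untreated Drosha libraries. In that library mt-Rnr2 took 21.3% of the reads, against 11.8% and 11.7% in its controls. The part of these cell types in the level was not tested. The untreated controls themselves ran from 20.1 CPM at 24 h to 12.7 CPM at 96 h. Of 10 Hox genes that passed the filter (among them Hoxa3, Hoxa7, Hoxa10, Hoxb9, Hoxc4, Hoxc13, Hoxd1, Hoxd8 and Hoxd13), 0, 0 and 1 were called at 24, 48 and 96 h in edgeR, against 0.184%, 2.82% and 23.7% of 16262 genes, and 1, 0 and 2 had an unadjusted p below 0.05. The 1 of 10 at 96 h is below the background share. With the filter of 10 reads, 30 Hox genes were tested and 1 was called at 96 h, while DESeq2 called 0 at each time. The group treated for 96 h holds 1 library, so its spread is taken from the other groups of the fit. The count of 1 became 0 in a fit of only the compared groups.

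Hoxc13 in the Drosha line was 1.80 CPM at 96 h against 0.427 and 1.30 CPM, a log2 change of 1.36 (adjusted p = 0.0795). Without control replicate 2 the adjusted p was 0.0175 and without replicate 1 it was 0.761, so 1 control library with 5 reads sets this value. Hoxa7 at 24 h stood at 0.660 and 0.418 CPM against 1.91 and 1.18 in controls, a log2 change of -1.45 (SE 0.566, adjusted p = 0.381). Hoxd8 and Hoxd9, which were high in the untreated Drosha line, had 4 and 1 reads in the 96 h treated library, against 5 and 8 and against 3 and 2 in its controls. Over the genes with at least 10 reads, the median log2 change of Hox genes was 0.01, 0.09 and -0.04 at 24, 48 and 96 h in the DGCR8 line, and 0.27, 0.22 and 0.03 in the Drosha line. Medians over all genes lay between -0.01 and 0.02.

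**Figure D3:**
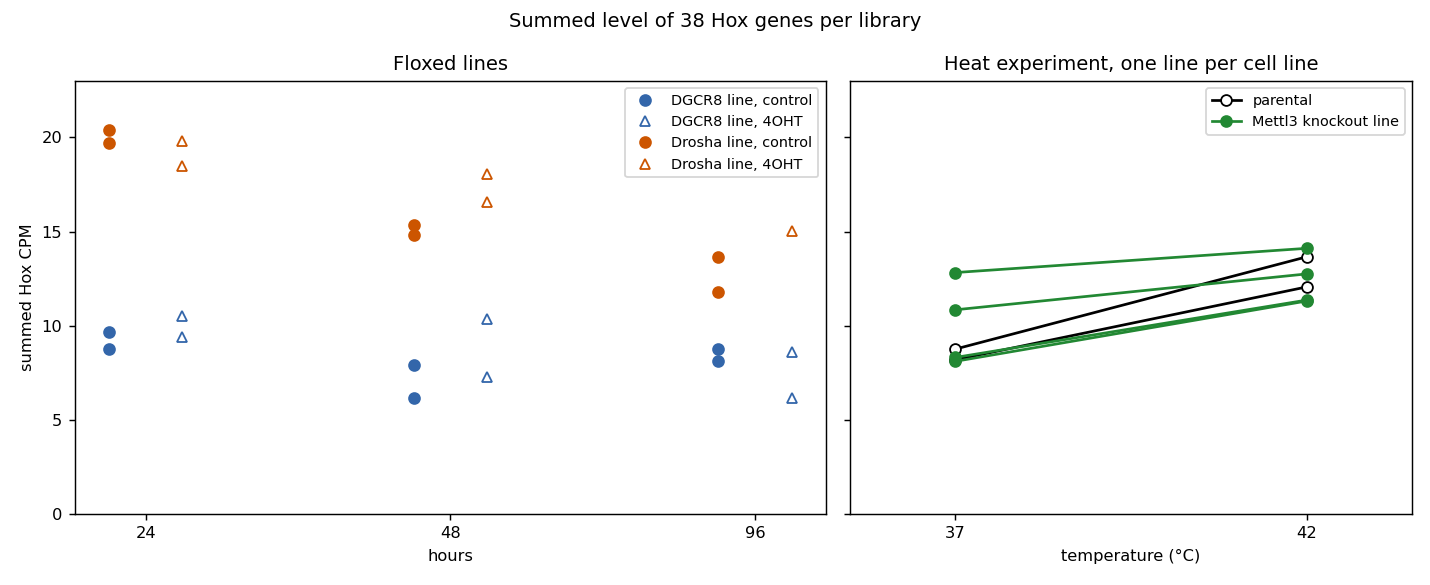
Summed level of 38 Hox genes per library (CPM): left, the floxed lines by hours of treatment, with controls as filled and 4OHT as open points; right, the heat experiment at 37 °C and 42 °C, with 1 line for each cell line. Untreated and treated Drosha libraries lie between 11.8 and 20.4 CPM at every time, and all 6 cell lines of the heat experiment have a higher sum at 42 °C.

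Some genes of the lists that act on Hox clusters passed the test after 4OHT at 96 h, where 13.5% of all genes tested were called in the DGCR8 line and 23.7% in the Drosha line. The counts are a description beside those shares, and the lists were not tested. In the DGCR8 line at 96 h, 2 of 12 PRC2 genes rose (Suz12 by 0.58 and Aebp2 by 0.52 on the log2 scale) and 1 fell (Epop, -0.57). Of 19 PRC1 genes tested, Bmi1 (1.46) and Phc3 (1.17) rose and Pcgf5 (-0.78) and Cbx7 (-0.53) fell. Of 9 Hox partner genes 2 rose, with Meis2 (1.45) among them. Of 13 retinoic acid and posterior genes tested, Rarb (2.10), Gdf11 (1.37) and Stra8 (0.81) rose and Crabp1 (-1.11) fell, and 4 of 6 neural markers rose. In the Drosha line at 96 h the same directions held for Suz12 (0.82), Aebp2 (0.68), Epop (-0.77), Bmi1 (1.39), Phc3 (0.86), Cbx7 (-0.67) and Crabp1 (-1.25), while of 20 PRC1 genes 4 rose and 5 fell, of 13 MLL and trithorax genes 3 rose and 3 fell, T fell by 1.745 on the log2 scale and 6 of 19 retinoic acid and posterior genes fell and 1 rose. Of the other developmental regulators that Polycomb silences, 1 of 10 tested rose in the DGCR8 line.

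Heat called no Hox gene. The 7 that passed the filter (among them Hoxa7, Hoxb9, Hoxb13, Hoxc4, Hoxc13 and Hoxd13) gave 0 calls in edgeR in the knockout lines and 0 in parental cells, where 0.185% and 0.0192% of 15635 genes were called, and 0 of the 7 had an unadjusted p below 0.05 in either. DESeq2 called 0, and a fit with the cell line as a block called 0. The heat shock gene Hspa1a rose by 7.53 in the knockout lines and 7.86 in parental cells on the log2 scale. With the filter of 10 reads, 25 Hox genes were tested and 0 called, with 0 at an unadjusted p below 0.05 in the knockout lines and 3 in parental cells.

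The summed Hox level was higher at 42 °C in all 6 cell lines: 8.75 to 13.7 CPM and 8.18 to 12.1 CPM in the parental cultures, 8.31 to 11.4 in 1d1, 12.8 to 14.1 in 3xU, 10.8 to 12.8 in 1d2 and 8.10 to 11.3 in 2c4d. The ratios of 42 °C to 37 °C were 1.56, 1.48, 1.37, 1.10, 1.18 and 1.40 in that order. The same ratio for the summed level of other genes of low expression was 1.23, 0.976, 0.819, 0.931, 1.00 and 1.16. The median log2 change over the 25 Hox genes was 0.29 in the knockout lines and 0.47 in parental cells, against -0.005 and -0.012 over all genes. Of 6 mesoderm markers 5 were tested and all 5 had a positive log2 change in knockout lines (median 0.29) and in parental cells (median 0.55), with 0 called. Their summed level ran from 7.22 to 10.7 CPM at 37 °C and 7.31 to 16.8 CPM at 42 °C in the knockout lines, and from 3.92 to 5.17 and 6.05 to 7.48 CPM in parental cells. Of 8 stem cell markers, 2 had a positive change in the knockout lines and 1 in parental cells, with 0 called. The other marker lists were mixed. In knockout lines and parental cells, 3 and 2 of 6 endoderm markers and 2 and 3 of 6 neural markers had a positive change. For fibroblast feeder markers it was 3 and 2 of 5 tested, and 0 of these 3 lists were called. The part of these cell types in the Hox level was not tested. No test of the summed level was made, since the members were chosen with results of these data known.

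Values of single genes under heat varied between cell lines. Hoxb13 had 6 and 3 reads in parental cells at 37 °C and 3 and 23 at 42 °C, a log2 change of 1.91 (SE 0.906, unadjusted p = 0.0552), with 1 of 2 cultures lower and 1 higher. Without the parental culture 2 library at 42 °C the log2 change was 0.195. Hoxb9 changed by 0.61 and 0.45, Hoxd13 by 0.80 and 0.81, Hoxc13 by 0.29 and 0.42 and Hoxc4 by -0.57 and -0.85 in knockout and parental cells, and the adjusted p was 0.9998 for each in the knockout lines.

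Loss of METTL3 called no Hox gene either. Against parental cells, 0 of the 7 were called in edgeR at 37 °C and 0 at 42 °C, with 0 and 0 at an unadjusted p below 0.05 and 0 in DESeq2, where 0.902% and 0.64% of genes were called. The widest gap was for Hoxa7 at 42 °C, with 9 and 8 reads in parental cells (1.27 and 0.704 CPM) and 6, 4, 1 and 5 reads in the knockout lines (0.620, 0.406, 0.0856 and 0.449 CPM). All 4 knockout lines lay below both parental cultures, a log2 difference of -1.36 with an unadjusted p of 0.0889 and an adjusted p of 0.393 (edgeR). Hoxa7 was picked as the widest gap among the 7, and the share of all genes split in this way was not counted. At 37 °C the Hoxa7 difference was -0.26. Hoxd13 differed by 0.43 and 0.42, Hoxb9 by 0.30 and 0.47 and Hoxc13 by 0.33 and 0.20 at 37 °C and 42 °C. The endoderm markers Gata4, Gata6 and Cubn were called lower in the knockout lines at both temperatures (log2 differences of -3.81, -3.16 and -4.41 at 37 °C). The other 3 of 6 were not called: Sox17 (-2.43) and Dab2 (-0.90) were lower at 37 °C, while Foxa2 was higher at 37 °C (2.86) and 42 °C (1.55). Of 6 neural markers at 37 °C, Sox1 was called lower (-2.395) and 5 had a positive difference, with 0 called at 42 °C.

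Of the noncoding genes of the clusters, 16 of 20 listed had a row, and Halr1 stood apart. Halr1, transcribed beside the anterior end of HoxA, had 5297 reads, more than all 38 Hox genes together, and ran from 2.07 to 27.9 CPM with a median of 11.9 CPM. It was lower in the untreated Drosha line than in the untreated DGCR8 line, at 10.35 against 16.94 CPM (log2 difference -0.83, SE 0.0952, adjusted p = 1.73e-06, edgeR). Halr1 had 353 and 197 reads in parental cells at 37 °C and 26, 86, 114 and 73 reads in the 4 knockout lines, with the same order at 42 °C (198 and 180 against 20, 70, 107 and 51). The knockout lines lay below both parental cultures at both temperatures, with log2 differences of -1.66 (adjusted p = 0.145) and -1.96 (adjusted p = 0.0972). Line 1d1 had the fewest Halr1 reads at both temperatures.

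The rest of the noncoding genes were near their detection limit. Hotairm1, transcribed at the anterior end of HoxA, had 164 reads, the others at most 27: Hoxb3os 27, Hoxaas3 27, Hoxa11os 20, Hoxaas2 12, Hotair 10, Hoxd3os1 10, Hottip 4 and Hoxb5os 2. Hotair silences HOXD in trans in human fibroblasts and Hottip acts on posterior HoxA genes, and both were read in few libraries here. Antisense partners and Hox genes cannot be told apart where they overlap if the counting ignored strand.

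In chromatin, METTL3 was below its input across all 4 clusters. The 4 METTL3 precipitates of clones 1 and 2 were compared with the 2 inputs in 477127 windows that passed a mean of 10 counts (edgeR quasi-likelihood test, clone as a covariate). Of the 103 Hox windows, 78 were called lower and 1 higher, and 98 had a negative log2 ratio. Over all windows, 12.5% were called lower and 4.17% higher. The median log2 ratio of the Hox windows was -1.19 (range -2.10 to 0.91), against 0.05 over all windows. By cluster, 18 of 22 HoxA windows were lower (median -1.29), 27 of 36 HoxB windows (-1.04), 17 of 24 HoxC windows (-1.03) and 16 of 21 HoxD windows (-1.25).

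The level of the inputs moved with this result. In the METTL3 inputs the median Hox window stood at 4.60 and 4.53 times the median of all windows, and in the precipitates at 1.83 to 2.02 times. Among 96853 windows whose input level lay between the 10th and 90th percentile of the Hox windows (2.62 to 9.92 CPM), 46.8% were called lower, with a median log2 ratio of -0.50. Of the 81 Hox windows in that range, 67 (82.7%) were called lower and 0 higher, with a median of -1.19. With library totals in place of TMM scaling, the median of all windows moved from 0.05 to 0.26 and that of the Hox windows to -0.97. The pulldown measures the tagged protein against total chromatin, and no precipitate from untagged cells entered this comparison.

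The lowest window of all lay in HoxC at chr15:102935001-102940000, over Hoxc12. It held 3.89, 3.30, 2.93 and 3.47 CPM in the precipitates and 12.2 and 13.0 CPM in the inputs, a log2 ratio of -2.10 (SE 0.182, adjusted p = 5.58e-25). In HoxB the lowest was chr11:96345001-96350000 over Hoxb3 (-1.996), in HoxD chr2:74745001-74750000 over Hoxd3 (-1.92) and in HoxA chr6:52230001-52235000 over Hoxa10, which also holds the hairpin of miR-196b (-1.81). Every one of the 4 precipitates lay below both inputs in each of these windows.

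The high ends sat near 0 except in HoxD. The window chr2:74765001-74770000, which holds the end of Hoxd1 and leaves the cluster, had 2.34, 2.69, 2.21 and 1.72 CPM in the precipitates and 1.06 and 1.02 CPM in the inputs, a log2 ratio of 0.91 (SE 0.272, adjusted p = 0.00821). DESeq2, and edgeR with a minimum mean of 50 counts, called 0 Hox windows higher. The highest HoxC window was chr15:103020001-103025000 over Hoxc4 (0.10), the highest HoxB window chr11:96355001-96360000 (0.03) and the highest HoxA window chr6:52185001-52190000 over Hoxa3 and Hoxa4 (-0.02). The inputs of these 3 windows held 1.62 to 3.00 CPM.

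The METTL3 windows at the starts of the genes described above lay below input, as did 98 of all 103 Hox windows. The log2 ratio was -1.73 at Hoxd9 (chr2:74695001-74700000), -1.23 at Hoxa7 (chr6:52215001-52220000), -1.20 at Hoxb4 (chr11:96315001-96320000, which also holds the hairpin of miR-10a), -1.44 at Hoxd10 (chr2:74690001-74695000), -1.20 at Hoxd13 and -1.09 at Hoxd8. The Hoxd9 window held 3.69, 3.03, 2.45 and 2.83 CPM in the precipitates and 9.23 and 7.84 CPM in the inputs. The RNA and the METTL3 ChIP come from different lines.

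**Figure D4:**
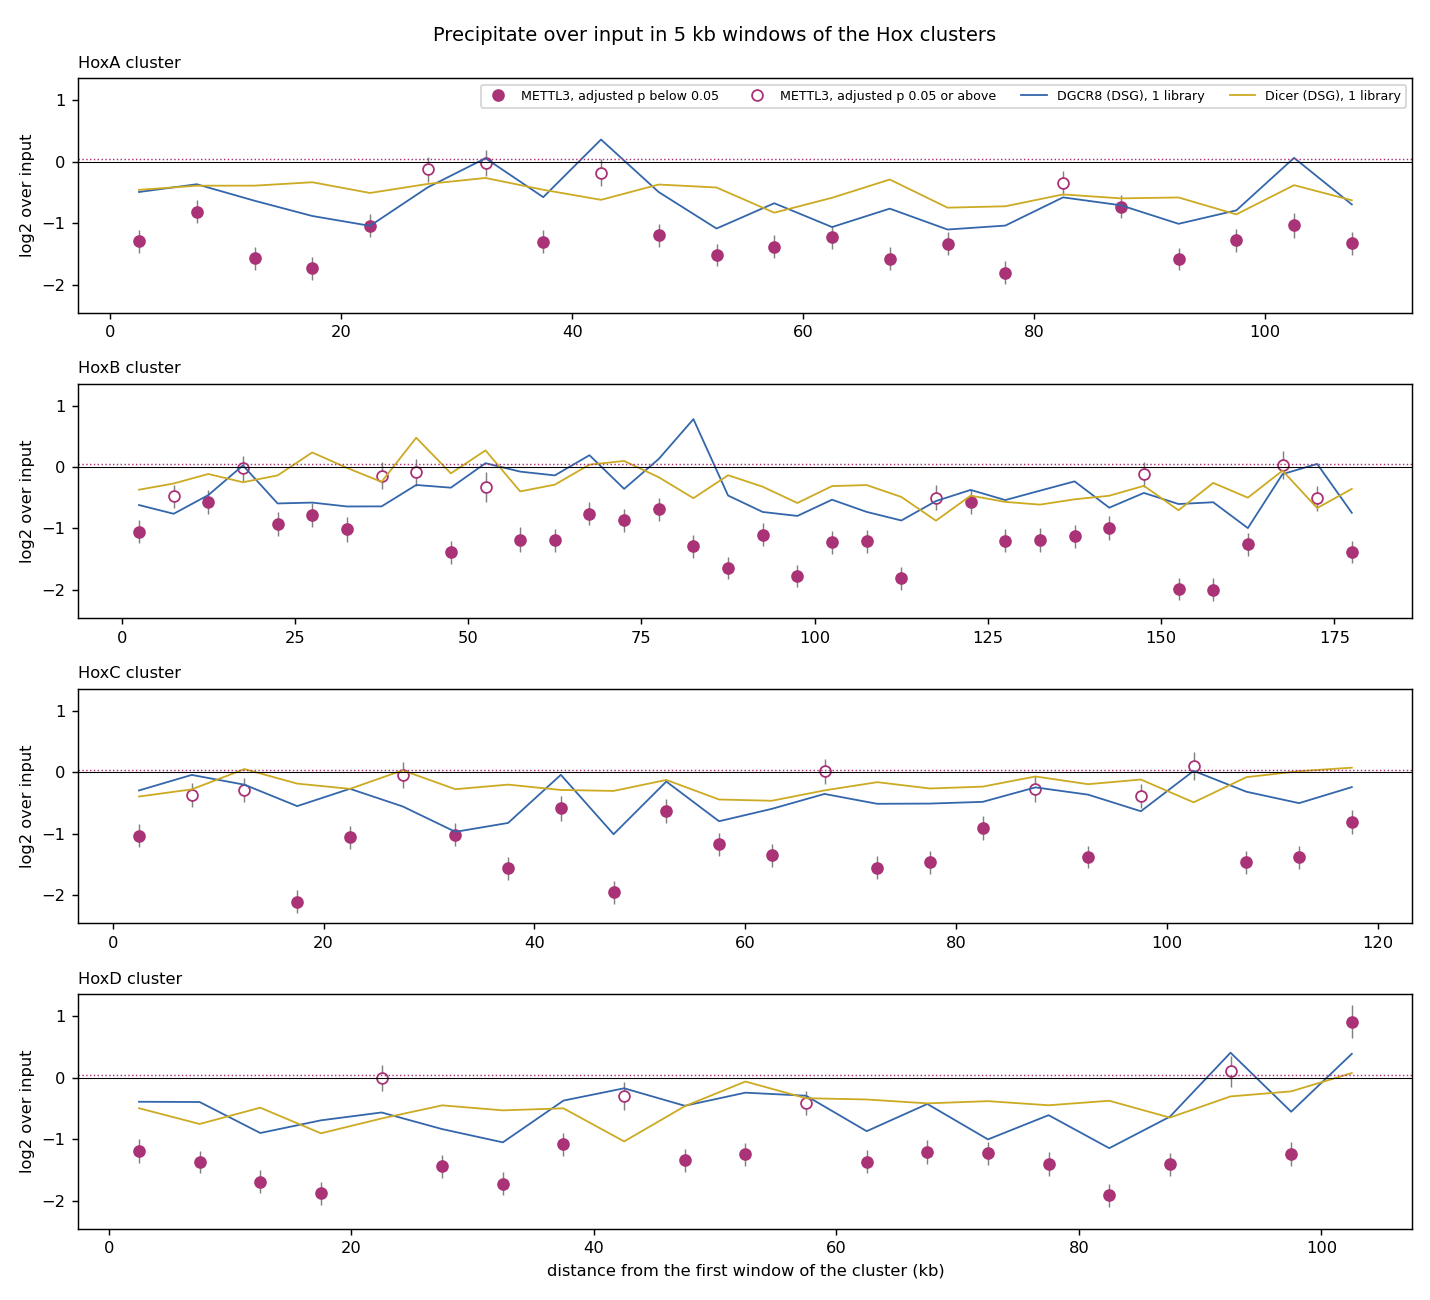
Log2 ratio of precipitate over input in 5 kb windows of the HoxA, HoxB, HoxC and HoxD clusters against distance from the first window (kb): METTL3 with its SE (points, filled where the adjusted p is below 0.05), and DGCR8 and Dicer after DSG fixation (lines, 1 library each). Dicer is set against the parental input. METTL3 points lie below 0 in 98 of 103 windows and the dotted line marks the median of all windows at 0.05.

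The other tagged proteins lay on the same side of 0, from single libraries scaled by library totals and with no test. On that scale the median log2 ratio of the Hox windows was -0.98, -0.91, -0.80 and -0.89 in the 4 METTL3 precipitates of clones 1 and 2. For DGCR8 it was -0.31 after FA fixation (all windows 0.17) and -0.53 after DSG fixation (0.29). In the wild type cells of the knockout experiment DGCR8 gave -0.47 (0.07). Dicer (-0.36, all windows 0.02) and Drosha (-0.84, all windows -0.02) were set against the parental input, not an input of their own tagged lines. That parental input over the DGCR8 input, a comparison of 2 inputs, gave 0.18 (0.03). The part of this gap between inputs in the Dicer and Drosha values was not tested. Windows with a Hox start (23) were lower than the 80 without one in each of the 4 METTL3 precipitates, with medians of -1.19 against -0.87, -1.11 against -0.67, -1.01 against -0.75 and -1.08 against -0.78. For Drosha the medians were -1.21 against -0.79, for DGCR8 after DSG -0.70 against -0.47 and for Dicer -0.50 against -0.30. These differences between windows were not tested.

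The DGCR8 precipitates with and without METTL3 differed little over the Hox clusters. The Mettl3 knockout precipitate over the wild type precipitate had a median log2 ratio of 0.03 over the Hox windows, against -0.00042 over all windows. The ratio of summed counts was 0.019 on the log2 scale, with a 95% interval for counting error of -0.025 to 0.064. With 1 library a condition there is no replicate check.

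Heat did not bring a called change of METTL3 over the clusters. In the lines H4 and H5, 0 Hox windows were called between 42 °C and 37 °C in edgeR, where 0% of 495095 windows were called higher and 0% lower (33020 had an unadjusted p below 0.05, and DESeq2 called 5571). Of the Hox windows, 2 had an unadjusted p below 0.05, DESeq2 called 0, and a fit with the line as a block called 0 of them and 10270 over all windows. The median log2 change of the Hox windows was -0.17, against 0.01 over all windows. For DGCR8 the median log2 ratio of 42 °C over 37 °C was 0.16 with library totals (all windows 0.28) and -0.12 with scaling by the median window, so its sign flips with the scaling. At 37 °C the ratios over input were -0.88 for DGCR8, -0.96 for METTL3 in H4 and -0.48 in H5. The H4 input stood apart, with Hox windows at 8.88 times the median window against 2.70 to 4.60 in the other inputs, and its level on chromosome 11 was 3.14 against 1.37 to 2.00, so the H4 ratio rests on an input unlike the rest.

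**Figure D5:**
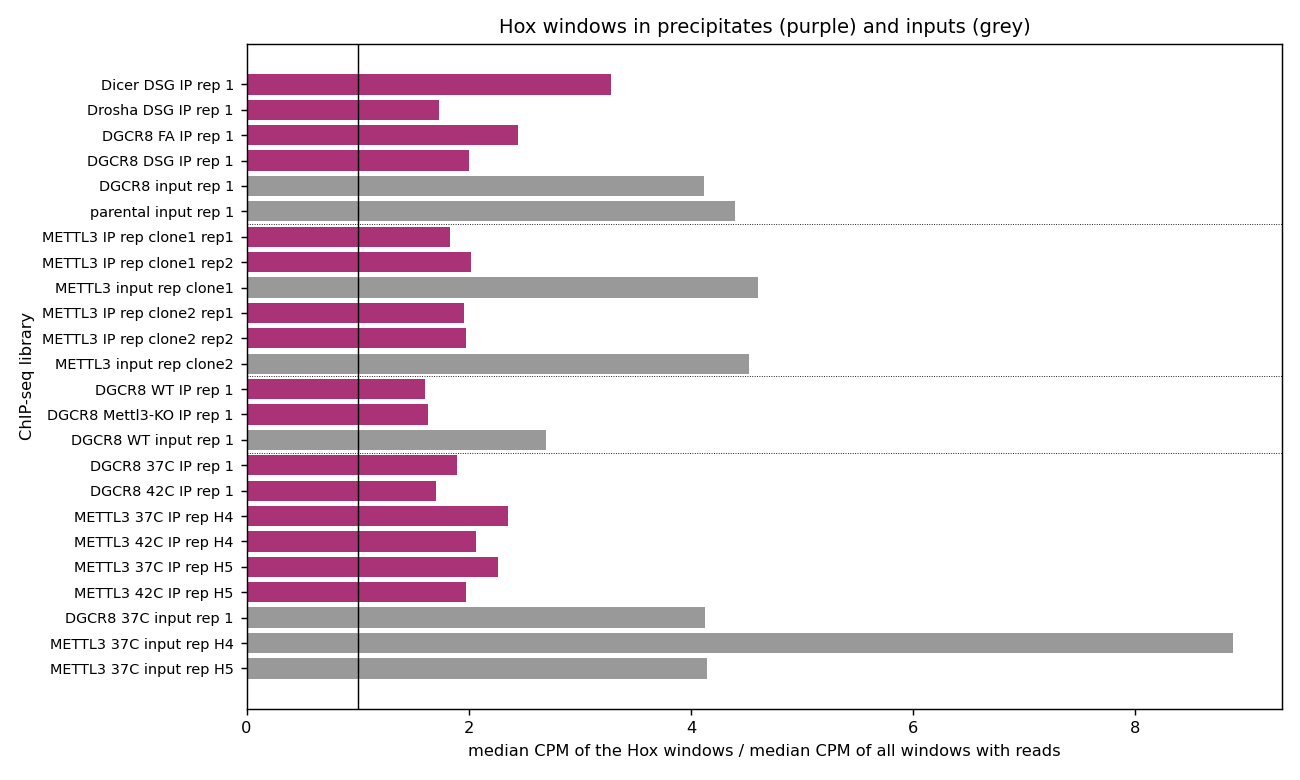
Median CPM of the 103 Hox windows over the median CPM of all windows, 1 bar for each of 24 ChIP libraries (precipitates purple, inputs grey). Inputs lie at 2.70 to 4.60 apart from the H4 input at 8.88, and precipitates at 1.60 to 2.44 apart from Dicer at 3.28.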

How the data were processed

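Gene expression was read from tables of raw exon counts per gene that the authors deposited for 35 RNA libraries, and ChIP from raw counts per 5 kb window that the authors deposited for 24 libraries. The submitters' processing notes name Bowtie and the mm10 build. The counting tool, its strand setting and the meaning of the window filter are not given in the sources used here. Exon widths (in bases) are those of the authors' deposited tables. Of 39017 gene identifiers, 37607 were given a symbol. Samples were grouped by title, and 1 DGCR8 ChIP column was assigned to the FA precipitate by elimination.

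CPM values are counts divided by the library total and multiplied by 1000000. Genes were tested in R 4.3.3 with edgeR 4.0.16 (TMM, filterByExpr, quasi-likelihood F test, Benjamini-Hochberg over all genes tested, threshold 0.05), with separate fits for the DGCR8 line, the Drosha line, the 12 untreated libraries (time as a covariate) and the heat experiment, and in fits of windows averaging 10 or more counts. Tables and single-library log2 ratios (pseudocount 1) used Python 3.11.15. Alternatives were DESeq2 1.42.0, other scaling factors, a filter of 10 counts, fewer groups, replicate or cell line blocks and leaving out each library. The scripts were tested on simulated data. SE is the log2 difference over the square root of F.

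In the heat experiment the same cell line was sampled at both temperatures, and deviations from the group mean correlated at 0.606 to 0.833 between them. The main test had no block, per design.

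Named were the members, with values in every library for those that passed the filter in an RNA set, and from other lists at most 4 called genes with the smallest p. The members and lists were chosen with earlier results of these data known. Results for some genes are not reported here, though counts and sums over the family include every member with a row.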

Additional observations from a re-analysis of the deposited data

Results flagged for a closer look

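Hoxc4 in the Mettl3 knockout line 1d2 at 37 °C stood at 1.101 CPM (13 reads), far above the other 3 knockout lines at that temperature (1, 1 and 2 reads), with a gap to the nearest of 0.960 of the whole range of the group. It was the 1 value of this kind among the 18 groups of 4 lines examined, where chance gives about 1 in 20. At 42 °C the same line had 5 reads.

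The log2 change of Hoxc13 after 4OHT had opposite signs in the floxed lines at 24 h and at 96 h. At 24 h the log2 change was 0.5067 in the DGCR8 line and -0.3447 in the Drosha line, with every treated library on the same side of its controls in each line. The share of all genes split in this way was not counted. At 96 h the log2 change was -1.149 in the DGCR8 line and 1.361 in the Drosha line. The latter came from 1 treated library and rests on 1 control library with 5 reads. The difference between the lines was not tested, no single change passed the adjusted threshold, and the order of the lines at 24 h is the opposite of that at 96 h.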

How the results depend on the processing

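The main counts of called Hox genes were repeated with DESeq2, other scaling factors, a filter of 10 counts, fewer groups, blocks and without each library. No called result changed sign. The single call in the Drosha line at 96 h became 0 with DESeq2 and 0 in a fit of only the compared groups. The 3 calls between the untreated lines became 10 with the filter of 10 counts, and 3 to 7 without 1 library each. Scaling by the median window moved the median log2 ratio of Hox windows to -0.489 for DGCR8 after FA, -0.8225 for DGCR8 after DSG, -0.5393 for wild type DGCR8, -0.8026 for DGCR8 at 37 °C and -0.1154 for DGCR8 at 42 °C over 37 °C, where the sign flipped. Windows wholly inside the clusters gave -0.9118 for Drosha, and a pseudocount of 5 gave -0.8448 for DGCR8 at 37 °C. The cause of these moves was not tested. Hox windows called for METTL3 stayed between 74 and 81 under the 8 alternatives. Most Hox genes had under 10 reads in a library, which limits which single genes could be called.

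Replicate numbers of the floxed lines did not pair the libraries (correlations from -0.541 to 0.41). A replicate block left the Hox calls at 0, 0 and 0 in the DGCR8 line and 0, 0 and 1 in the Drosha line, and moved the called genes from 16 to 19, 221 to 273, 2017 to 2166, 30 to 45, 458 to 358 and 3854 to 3502. With crossed numbers, chosen after seeing the data, 36 genes were called in the DGCR8 line at 24 h and 717 in the Drosha line at 48 h, with 0 Hox genes in each. A cell line block raised the genes called under heat from 29 to 1058 in the knockout lines and from 3 to 119 in parental cells, with 0 Hox genes.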

Other observations

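Among homeobox relatives outside the clusters, in the untreated DGCR8 line Cdx1 averaged 1.38 CPM, Cdx2 0.205 CPM and Pdx1 0.193 CPM. In a pair of neighbouring HoxB windows, chosen after their values were seen, the DGCR8 precipitate at 37 °C stood above its input, by a log2 ratio of 1.775 at chr11:96265001-96270000, which holds the hairpin gene Mir196a-1, and of 2.09 at chr11:96270001-96275000 over Hoxb9. The median over the Hox windows of that library was -0.88. In the DGCR8 precipitates of the Microprocessor experiment the log2 ratios over input in these windows were -0.21 and -0.31 after FA and 0.13 and 0.78 after DSG. The value rests on 1 library.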
